A study of Mus musculus with 6 samples.

Results

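The semaphorins, plexins, neuropilins, ephrins, Eph receptors, Slits, Robos, netrins and Unc5 receptors form the classical set of axon guidance ligands and receptors, and their messenger RNAs were followed in primary cultures of mouse testicular peritubular myoid cells. Members were chosen by gene symbol alone, as all genes of these families with an expression value in each of the 6 libraries, which gave 68 genes of 19285. The cultures came from C57BL/6J mice and were kept in DMEM/F12 with 10% fetal bovine serum. One group of 3 libraries was untreated, and the other group of 3 had received 50 nM endothelin-1 (ET-1), a vasoconstrictor peptide, for 5 min. No label names the culture or animal behind a library, so p-values here reflect only variation from library to library, which may be technical.

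Guidance cues steer growing axons, but the same ligands and receptors act in many other tissues, where they set the repulsion, adhesion and contraction of neighbouring cells. Semaphorins signal through plexins, with neuropilins as co-receptors for most secreted class 3 semaphorins. Ephrins are bound to the cell surface and signal through Eph receptor tyrosine kinases on the adjacent cell. Slits are secreted and bind Robo receptors, and netrins bind Unc5 receptors and the receptor DCC. In blood vessels Unc5b, Robo4, Ephb4, Efnb2, Nrp1 and Plxnd1 are known from endothelial cells, and peritubular myoid cells are the smooth-muscle-like cells that wrap the seminiferous tubules.

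Expression was given as FPKM, the number of fragments per kilobase of transcript and scaled to the fragments of the library, so that levels of different genes can be set side by side. The spacing of low FPKM values put the depth at about 18050000 to 18970000 fragments per library. The smooth muscle markers Acta2 and Tagln were at 1474 to 2211 FPKM and 1343 to 2203 FPKM, while Myocd, the smooth muscle co-activator, stayed at 0.24 to 0.42 FPKM. The sum of 7 smooth muscle markers was 3561, 3088 and 3511 in untreated and 3918, 5026 and 3533 in ET-1 libraries. Of the 7, 4 had a higher mean after ET-1, and Myocd, Myh11 and Des had lower ones. Tagln and Cnn1 were higher and Myocd was lower after ET-1 without overlap. Markers of other testicular cells were present too. The summed FPKM of 10 Sertoli cell markers was 198, 689 and 290 in untreated libraries 1 to 3 and 415, 1083 and 507 in ET-1 libraries 1 to 3. All 10 had a higher mean after ET-1, and 4 of them were higher without overlap. The sum of 10 macrophage markers was 113, 167 and 122 in untreated and 651, 334 and 278 in ET-1 libraries, and 7 of the 10 were higher in every ET-1 library than in any untreated one. The sum of 12 endothelial markers was 106, 66.5 and 90.9 in untreated and 38.4, 28.8 and 49.8 in ET-1 libraries, and 11 of the 12 were lower without overlap. The remaining marker, Cdh5, was at 20.66, 9.94 and 17.02 FPKM in untreated and 22.10, 11.17 and 24.80 FPKM in ET-1 libraries. The sum of 8 neural and Schwann cell markers was 69.9, 162 and 83.7 in untreated and 96.0, 243 and 64.0 in ET-1 libraries, and 4 of the 8 were higher after ET-1 without overlap. Most of that sum was Tubb3, a tubulin of neurons, at 51.87 to 220.71 FPKM, while the glial genes Gfap and Sox10 stayed at or below 0.10 FPKM. The sum of 7 Leydig cell markers was 4889, 2335 and 4960 in untreated and 1685, 828 and 2422 in ET-1 libraries, lower after ET-1 within every number. Insl3, a peptide hormone of Leydig cells, gave the most of it at 614 to 4532 FPKM, Cyp11a1 was at 87.85 to 384.5 FPKM and Cyp17a1 at 0.09 FPKM or less. Star went the other way, at 77.69, 79.67 and 61.96 FPKM in untreated and 130.31, 103.72 and 155.11 FPKM in ET-1 libraries. Of the 7 Leydig cell markers, 1 was higher and 0 were lower after ET-1 without overlap. Germ cell and pericyte markers summed to 3.19 to 7.41 and 14.8 to 41.9 FPKM. In such bulk samples, fewer cells of a type and less RNA per cell cannot be told apart. The closest pair of libraries, untreated 1 and untreated 3, correlated across the tested genes at r = 0.996 (log2 scale), while remaining pairs of the same group gave 0.973 to 0.983.

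The cultures expressed many of these genes at moderate levels and a few at high levels. Averaged over the 6 libraries, 14 members were at 10 FPKM or more, 26 between 1 and 10, 27 below 1, and Epha6 was listed at 0 in every library. The highest was Sema6c, a transmembrane semaphorin, with 40.44, 103.09 and 54.33 FPKM in untreated libraries 1 to 3 and 57.26, 175.38 and 72.72 FPKM in ET-1 libraries 1 to 3. Epha2, an Eph receptor of epithelial and mesenchymal cells, followed at 49.59, 79.95 and 50.99 FPKM in untreated and 19.29, 66.11 and 29.21 FPKM in ET-1 libraries. In both genes the groups overlapped, and the libraries numbered 2 were the highest of their group. Plxnb2, a receptor of class 4 semaphorins, was at 46.22, 54.19 and 44.23 FPKM in untreated and 45.39, 51.29 and 47.18 FPKM in ET-1 libraries. It held 55.9% of the summed FPKM of the 9 plexins.

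**Figure D1:**
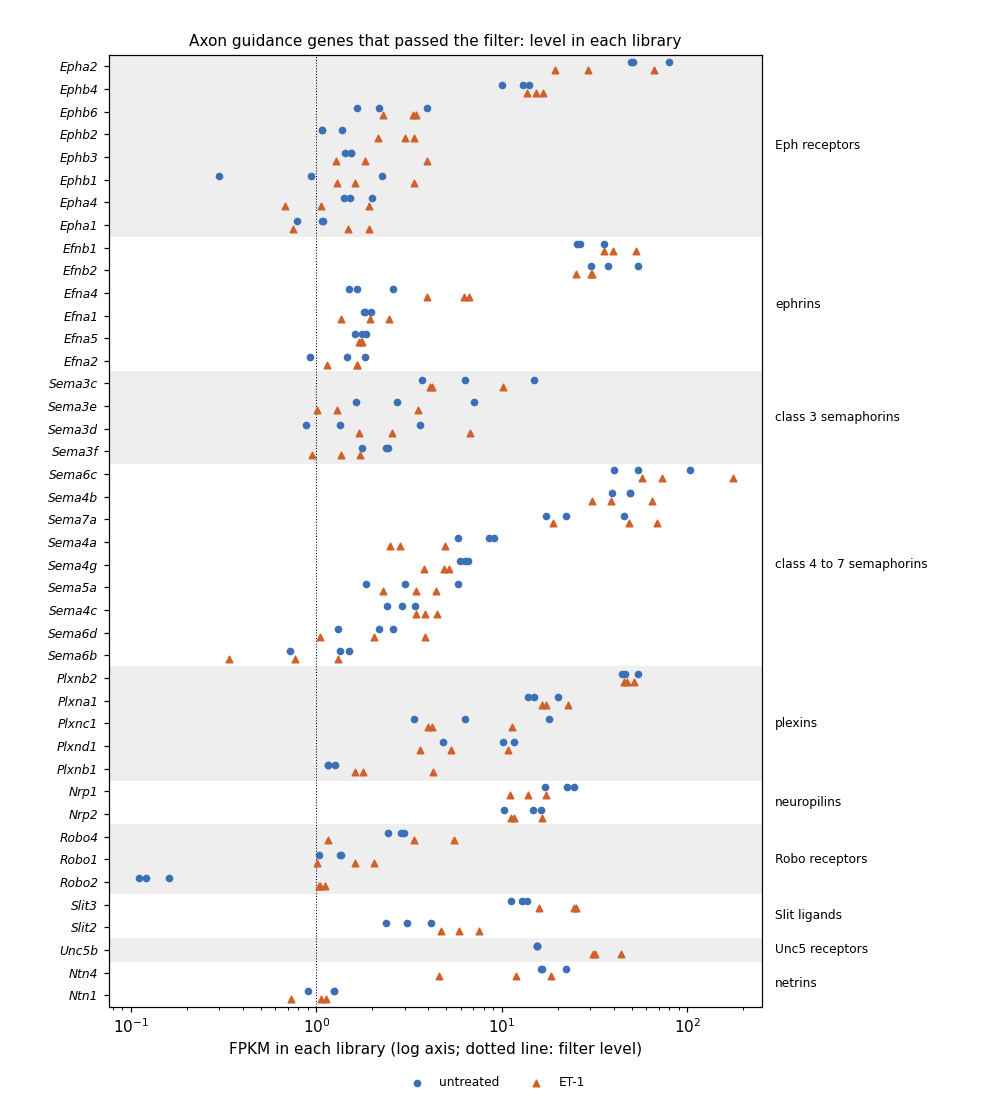
FPKM (log axis) of the 42 members that passed the filter, in each of 3 untreated (circles) and 3 ET-1 (triangles) libraries, grouped by family. Sema6c, Epha2, Plxnb2 and Sema4b lie at the right, and Robo2 is the member whose untreated libraries lie at 0.11 to 0.16 FPKM and whose ET-1 libraries lie at 1.03 to 1.11 FPKM.

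Each family was led by 1 or 2 genes. Among the ephrins, Efnb1 and Efnb2 lay far above Efna1, Efna2, Efna4 and Efna5, and the group means of Efnb1 and Efnb2 ran from 28.6 to 42.7 FPKM. Sema4b and Sema7a, a membrane-spanning and a lipid-anchored semaphorin, came after Sema6c among the class 4 to 7 semaphorins. Sema4b was at 49.37, 39.07 and 49.33 FPKM in untreated and 38.88, 30.66 and 64.17 FPKM in ET-1 libraries, with ET-1 library 3 the highest of all. Sema3c led the class 3 semaphorins with 45.1% of their sum, at a level of 3.72 to 14.94 FPKM. Slit3 held 78.8% of the Slit sum, Ntn4 90.4% of the netrin sum and Unc5b 98.9% of the Unc5 sum. Nrp2 was at 16.16, 10.30 and 14.77 FPKM in untreated and 11.63, 11.18 and 16.42 FPKM in ET-1 libraries, so that both neuropilins were present. Plxna1, a plexin that pairs with neuropilins, was at 13.79, 19.96 and 14.81 FPKM in untreated and 17.40, 22.82 and 16.37 FPKM in ET-1 libraries. Ephb4, the receptor of ephrin-B2, was at 13.92, 9.96 and 13.03 FPKM in untreated and 16.70, 15.22 and 13.62 FPKM in ET-1 libraries. Among the 4 Robo receptors, Robo4 had the highest mean, at 1.15 to 5.53 FPKM, although Robo1 was above it in ET-1 library 1.

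A test was possible for the 42 members that reached 1 FPKM in at least 3 libraries. They were tested on log2(FPKM + 1) with limma in a fit over all 11664 genes that reached this level, and p-values adjusted by Benjamini-Hochberg were called under 0.05. Fold changes on this scale understate the change of low genes. Here and below, rose and fell mean higher or lower in the ET-1 libraries, taken after 5 min, than in the untreated ones. What caused such differences was not tested. Unc5b, Robo2, Efna4 and Ephb2 rose after ET-1 and no member fell, which is 9.52% of the members tested, beside 3.46% of all genes tested (1.57% higher and 1.89% lower). Robo2 entered the test only through its ET-1 libraries. Its place in that count, and in the counts of higher members that follow, comes in part from the filter. The groups did not overlap in 9 members that were higher and 3 that were lower, 28.6% of the members tested, beside 30.9% of all genes tested (13.2% higher and 17.6% lower). The median log2 change of the tested members was 0.06, against -0.03 over all genes tested, and it was above 0 in 24 members (57.1%, beside 45.7% of all genes tested). With the replicate number as a block, 7 members rose and 3 fell, 23.8% of those tested, beside 9.45% of all genes tested (4.26% higher and 5.19% lower). The counts changed when 1 library was left out. Without untreated library 1, untreated library 3 or ET-1 library 1, 0 members passed, and 9, 9 and 14 of the 42 had an unadjusted limma p under 0.05. Over all 11664 genes the same fits called 79, 0 and 75 genes, against 404 with all libraries. At the unadjusted level they gave 1930, 1653 and 2279. In all leave-one-out fits the log2 change was 0.98 to 1.22 for Unc5b, 0.85 to 0.89 for Robo2, 1.06 to 1.37 for Efna4 and 0.71 to 0.94 for Ephb2. Without untreated library 2, 2 members passed. With untreated libraries 1 and 3 averaged as 1 library 0 passed, and 9 members and 1772 of all genes had an unadjusted limma p under 0.05.

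**Figure D2:**
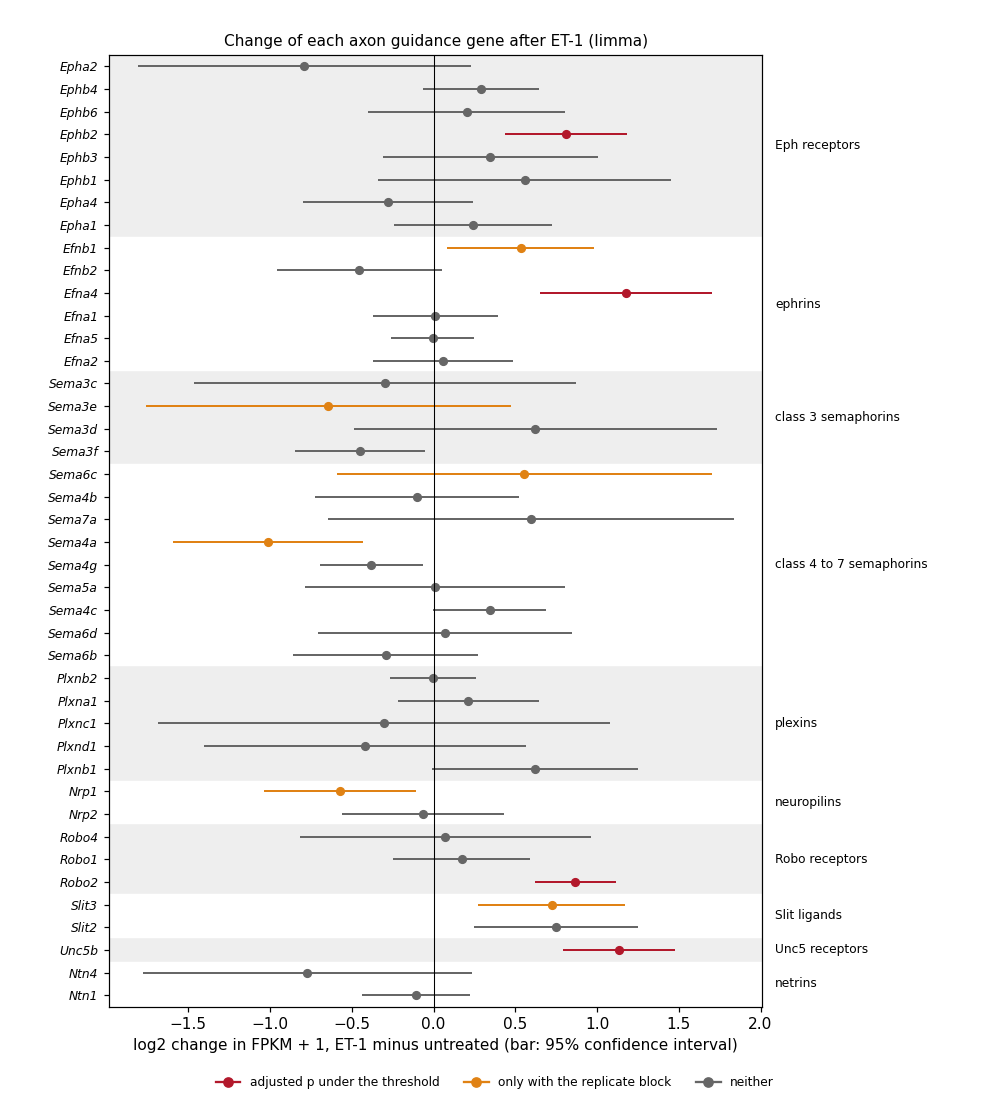
Log2 change of FPKM + 1 (ET-1 minus untreated, 3 libraries each) with its 95% confidence interval from the fit without a block, for the 42 tested members by family. Unc5b, Robo2, Efna4 and Ephb2 passed the threshold, and 6 further members (Efnb1, Sema3e, Sema6c, Sema4a, Nrp1 and Slit3) passed with the replicate block and not in the fit without it.

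Unc5b, a netrin receptor with a cytoplasmic death domain, showed the clearest rise among the abundant members. It lies on chromosome 10 from 60762595 to 60831581 on the minus strand (mm10). It was at 15.46, 15.40 and 15.48 FPKM in untreated libraries and at 31.83, 31.03 and 43.67 FPKM in ET-1 libraries. The untreated values lay within 0.1 FPKM of each other, every ET-1 value was above 30 FPKM, and the mean was 2.30-fold higher (15.4 ± 0.04 against 35.5 ± 7.1 FPKM, SD, n = 3 each). The log2 change was 1.13 ± 0.14 (SE; limma adjusted p = 0.0207; blocked by number, 0.0106). The call was lost without untreated library 1 (limma adjusted p = 0.0631), without untreated library 3 (0.111) and without ET-1 library 1 (0.0523), while the log2 change stayed between 0.98 and 1.22 in all leave-one-out fits. The other Unc5 receptors, Unc5a, Unc5c and Unc5d, were at 0.01 to 0.20 FPKM throughout. In this bulk measurement the rise of Unc5b stood beside lower endothelial markers (11 of 12 without overlap). It also stood beside higher macrophage markers (7 of 10 without overlap) and Sertoli cell markers (higher means in all 10). The part of cell composition in the rise was not tested.

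Of the netrins, Ntn4, a laminin-like netrin of basement membranes, was at 16.48, 22.08 and 16.20 FPKM in untreated and 4.61, 18.29 and 11.85 FPKM in ET-1 libraries. The 3 ET-1 values differed widely and library 2 lay within the untreated range (log2 change -0.77 ± 0.42, SE; limma adjusted p = 0.311). The change was -0.28 without ET-1 library 1 and -1.17 without ET-1 library 2. Ntn1, the diffusible netrin of the neural tube, was at 0.73 to 1.24 FPKM in all libraries. Ntn3 and Ntn5 were lower still, at 0.00 to 0.70 FPKM, and each overlaps another gene of the table, Tbc1d24 and Sec1, with which reads could be shared.

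Robo2, a Slit receptor, was nearly undetected in the untreated libraries and at about 1 FPKM in the ET-1 libraries. It was at 0.12, 0.11 and 0.16 FPKM in untreated and at 1.04, 1.03 and 1.11 FPKM in ET-1 libraries. From the estimated depth these values correspond to about 18, 17 and 24 fragments in untreated and 154, 149 and 166 in ET-1 libraries. The groups were far apart and each was narrow, with an 8.15-fold higher mean FPKM (log2 change 0.87 ± 0.10 on the log2(FPKM + 1) scale, SE; limma adjusted p = 0.0185, n = 3 each). Robo2 entered the test only because its ET-1 libraries were high, so this call follows in part from the filter. That call was lost without untreated library 1 (limma adjusted p = 0.0586), without untreated library 3 (0.111) and without ET-1 library 1 (0.0533). Robo1, the most widely expressed Robo, was at 1.34, 1.03 and 1.36 FPKM in untreated and 1.62, 1.01 and 2.04 FPKM in ET-1 libraries, with overlapping groups. Robo4, the endothelial Robo, was at 2.85, 2.42 and 2.98 FPKM in untreated and 1.15, 5.53 and 3.34 FPKM in ET-1 libraries, whose range enclosed all the untreated values.

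Both expressed Slit ligands were higher in every ET-1 library than in any untreated one, and neither passed the test. Slit3 was at 12.89, 11.16 and 13.71 FPKM in untreated and 25.08, 15.86 and 24.42 FPKM in ET-1 libraries (log2 change 0.72 ± 0.19, SE; limma adjusted p = 0.0818; blocked by number, 0.0258). ET-1 library 2 was the lowest of its group, and without it Slit3 passed (limma adjusted p = 0.0461). Slit2 was at 2.36, 4.14 and 3.08 FPKM in untreated and 7.50, 4.71 and 5.89 FPKM in ET-1 libraries (log2 change 0.75 ± 0.21, SE; limma adjusted p = 0.0955, and 0.0924 with the block). Slit1, the Slit of the nervous system, was at 0.01 FPKM or less.

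**Figure D3:**
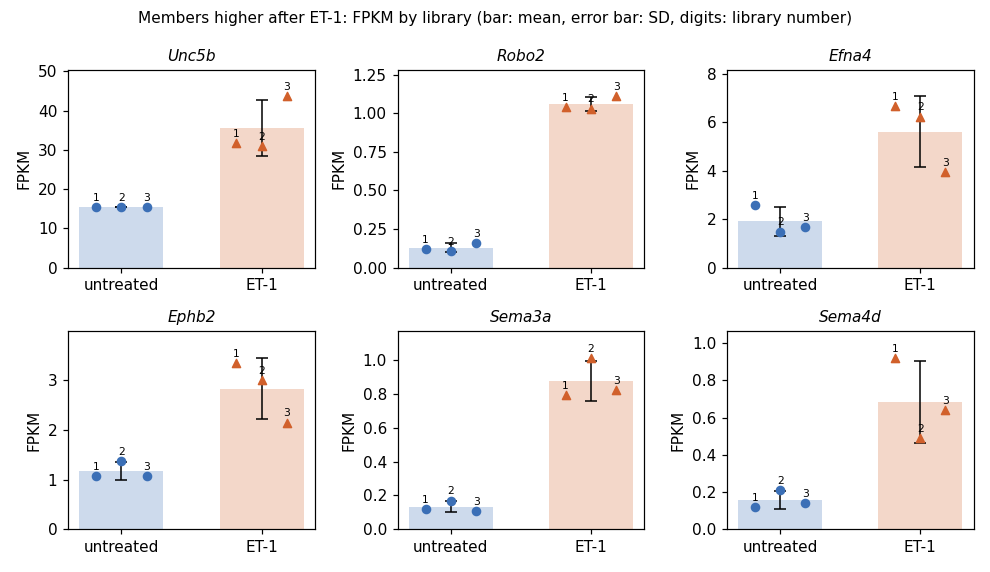
FPKM of 6 members by library (points, numbered by library), with the group mean (bar) and SD (error bar), n = 3 each. Unc5b, Robo2, Efna4 and Ephb2 passed limma, Sema3a and Sema4d lay under the filter, and in all 6 genes every ET-1 library is above every untreated library.

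Efna4, an ephrin held to the membrane by a lipid anchor, rose among the ephrins. It lies on chromosome 3 from 89333393 to 89338028 (mm10). It was at 2.59, 1.49 and 1.66 FPKM in untreated and at 6.67, 6.24 and 3.95 FPKM in ET-1 libraries, a 2.94-fold higher mean with no overlap. The log2 change was 1.18 ± 0.22 (SE, n = 3 each; limma adjusted p = 0.0432; blocked by number, 0.0152). Leaving out any 1 library except ET-1 library 3 ended this call, with limma adjusted p from 0.0719 to 0.195. The B ephrins, which span the membrane, did not move together. Efnb1 was at 25.44, 35.47 and 26.47 FPKM in untreated and 39.57, 52.96 and 35.55 FPKM in ET-1 libraries, separated by 0.08 FPKM. It passed only with the replicate block (log2 change 0.53 ± 0.19, SE; limma adjusted p = 0.147, and 0.0308 with the block). Efnb2, the ephrin of arterial endothelium, was at 30.16, 53.95 and 37.37 FPKM in untreated and 25.02, 30.65 and 30.06 FPKM in ET-1 libraries, and the groups overlapped (log2 change -0.45 ± 0.21, SE; limma adjusted p = 0.241). Efna5 lay at 1.61 to 1.85 FPKM in all 6 libraries, and Efna1 and Efna2 at 0.92 to 2.46 FPKM.

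Ephb2, a receptor of the B ephrins, rose among the Eph receptors. It lies on chromosome 4 from 136647539 to 136836012 (mm10), and was at 1.07, 1.38 and 1.07 FPKM in untreated and at 3.34, 3.01 and 2.15 FPKM in ET-1 libraries. The groups did not overlap and the mean was 2.41-fold higher (log2 change 0.81 ± 0.15, SE, n = 3 each; limma adjusted p = 0.0444, and 0.0277 with the block). As with Efna4, the call held without ET-1 library 3 and was lost without any other single library, with limma adjusted p from 0.0605 to 0.215. Epha2, the most abundant Eph receptor, did not pass (log2 change -0.79 ± 0.43, SE; limma adjusted p = 0.308), and its change ran from -0.41 without ET-1 library 1 to -1.27 without ET-1 library 2. Ephb4 did not pass either (log2 change 0.29 ± 0.15, SE; limma adjusted p = 0.282). Ephb3 was at 1.43, 1.53 and 1.53 FPKM in untreated and 3.97, 1.83 and 1.28 FPKM in ET-1 libraries, where ET-1 library 1 stood apart from the others. Ephb6, a receptor that lacks kinase activity, was at 1.65 to 3.97 FPKM, and Epha4 at 0.68 to 1.99 FPKM. Epha1 was at 0.75 to 1.92 FPKM, and its end overlaps Zyx on the opposite strand, which was at 234 to 382 FPKM. Reads in the shared stretch, from 42358487 to 42360213, cannot be told apart from those of Zyx without strand information. Epha3, Epha5, Epha7, Epha8 and Epha10 stayed at 0.07 FPKM or less.

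Promoter sequence is shown for the members that rose and whose deposited start is also a RefSeq start (GRCm38.p6), which were Unc5b, Efna4 and Ephb2. Each run holds the 250 bases before the start, read 5′ to 3′ on the strand of the gene, and capitals mark matches to the motifs searched on both strands.
Unc5b promoter, chr10:60831582-60831831, minus strand: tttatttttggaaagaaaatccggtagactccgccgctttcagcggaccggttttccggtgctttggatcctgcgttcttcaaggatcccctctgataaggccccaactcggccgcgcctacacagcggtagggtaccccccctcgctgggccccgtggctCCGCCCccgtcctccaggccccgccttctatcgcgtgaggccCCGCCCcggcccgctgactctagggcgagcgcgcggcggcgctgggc
Efna4 promoter, chr3:89338029-89338278, minus strand: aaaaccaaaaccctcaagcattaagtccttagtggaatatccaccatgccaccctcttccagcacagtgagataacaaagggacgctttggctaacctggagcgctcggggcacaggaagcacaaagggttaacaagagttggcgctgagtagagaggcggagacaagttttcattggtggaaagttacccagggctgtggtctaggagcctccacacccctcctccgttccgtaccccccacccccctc
Ephb2 promoter, chr4:136836013-136836262, minus strand: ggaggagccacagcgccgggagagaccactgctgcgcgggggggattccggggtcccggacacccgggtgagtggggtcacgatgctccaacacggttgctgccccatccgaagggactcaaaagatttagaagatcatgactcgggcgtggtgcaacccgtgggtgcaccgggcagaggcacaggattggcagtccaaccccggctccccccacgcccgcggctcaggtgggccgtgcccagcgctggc
The motifs were those of the early-response factors AP-1 (TGANTCA), CREB (TGACGTCA) and serum response factor (the CArG box), with the GC box (GGGCGG) and the TATA motif (TATAAA). Among 32851 RefSeq promoters of this length, AP-1 was found in 6.7%, the CREB motif in 1.5%, the CArG box in 1.5%, the GC box in 32.7% and the TATA motif in 12.4%. Unc5b held 2 GC boxes on the opposite strand, starting 89 and 47 bases before the start. The Efna4 and Ephb2 windows held none of the 5 motifs. The GC content was 66.8% for Unc5b, 54.4% for Efna4 and 68.4% for Ephb2.

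Sema4a had the largest negative log2 change among the tested members. This transmembrane semaphorin of immune and endothelial cells was at 9.04, 5.79 and 8.50 FPKM in untreated and at 2.49, 2.82 and 4.91 FPKM in ET-1 libraries. The groups did not overlap and the untreated mean was 2.28-fold that of ET-1 (log2 change -1.01 ± 0.24, SE, n = 3 each; limma adjusted p = 0.0738). It fell with the replicate block (limma adjusted p = 0.0306) and without ET-1 library 3 (0.0379). Sema4g was at 5.95, 6.30 and 6.59 FPKM in untreated and 5.18, 4.85 and 3.81 FPKM in ET-1 libraries (log2 change -0.38 ± 0.13, SE; limma adjusted p = 0.139). Its groups did not overlap, and those of Sema4c did not either, in the other direction. Sema4c was at 2.88, 2.39 and 3.39 FPKM in untreated and 3.45, 3.85 and 4.45 FPKM in ET-1 libraries (log2 change 0.34 ± 0.14, SE; limma adjusted p = 0.206). Sema3f, a secreted repellent that acts through Nrp2, was at 2.44, 2.37 and 1.76 FPKM in untreated and 1.72, 1.36 and 0.95 FPKM in ET-1 libraries (log2 change -0.45 ± 0.16, SE; limma adjusted p = 0.157). Sema6d lay at 1.04 to 3.84 FPKM, and Sema6b was at 1.31, 0.34 and 0.77 FPKM in ET-1 libraries, and in both the groups overlapped. Sema4b did not pass (-0.10 ± 0.26, SE; limma adjusted p = 0.842).

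Nrp1, the co-receptor of class 3 semaphorins and of vascular endothelial growth factor, was at 24.39, 17.06 and 22.51 FPKM in untreated and 13.90, 11.02 and 17.24 FPKM in ET-1 libraries. ET-1 library 3 lay just above untreated library 2, and within each number the ET-1 value was lower (log2 change -0.57 ± 0.19, SE; limma adjusted p = 0.136; blocked by number, 0.0377). For Nrp2 the log2 change was -0.06 ± 0.21 (SE; limma adjusted p = 0.879). Among the plexins, Plxnb2 had a log2 change of -0.004 with a 95% confidence interval from -0.26 to 0.25, and Plxna1 one of 0.21 ± 0.18 (SE; limma adjusted p = 0.512). Plxnb1 was at 1.26, 1.15 and 1.16 FPKM in untreated and 1.79, 4.23 and 1.61 FPKM in ET-1 libraries, and ET-1 library 2 was more than 2 times the others. Plxnd1, the endothelial receptor of Sema3e, was at 11.67, 4.81 and 10.13 FPKM in untreated and 5.35, 3.60 and 10.78 FPKM in ET-1 libraries. The groups overlapped, and library 2 was the lowest of each. Of the 6 members named above as known from endothelial cells, Nrp1, Efnb2 and Plxnd1 had lower means after ET-1, and Unc5b, Ephb4 and Robo4 had higher ones. The sum of endothelial markers was lower, and its part in these values was not tested.

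**Figure D4:**
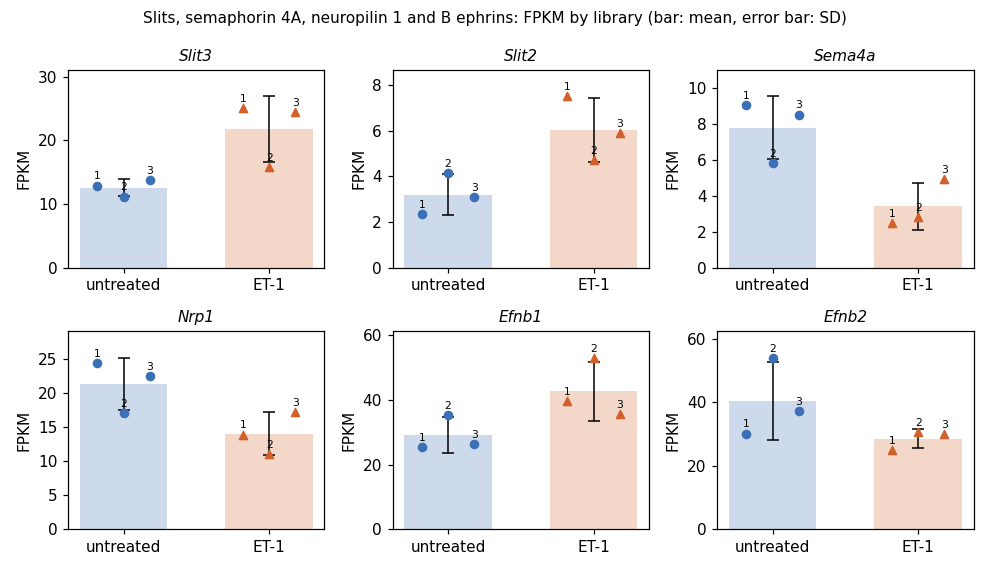
FPKM of Slit3, Slit2, Sema4a, Nrp1, Efnb1 and Efnb2 by library (points, numbered by library), with the group mean (bar) and SD (error bar), n = 3 each. Slit3, Slit2 and Efnb1 are higher and Sema4a is lower in every ET-1 library, while the groups of Nrp1 and Efnb2 overlap.

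The libraries numbered 2 gave the highest value of both groups for a set of members from several families. Of the 42 tested members, 15 were highest in library 2 of both groups (35.7%, against 21.2% of all genes tested) and 10 were lowest there (23.8%, against 20.5%). The 15 were Sema3c, Sema3d, Sema3e, Sema5a, Sema6c, Sema7a, Plxna1, Plxnb2, Plxnc1, Epha2, Epha4, Ephb1, Efnb1, Efnb2 and Ntn4. Sema3e, the ligand of Plxnd1, was at 1.63, 7.09 and 2.72 FPKM in untreated and 1.01, 3.51 and 1.29 FPKM in ET-1 libraries. Sema3d was at 0.88, 3.61 and 1.34 FPKM in untreated and 2.55, 6.73 and 1.70 FPKM in ET-1 libraries. In both genes library 2 was more than 3 times the mean of libraries 1 and 3 in each group. Sema3c was at 3.72, 14.94 and 6.33 FPKM in untreated and 4.20, 10.15 and 4.12 FPKM in ET-1 libraries. Plxnc1, the receptor of Sema7a, was at 3.37, 17.89 and 6.30 FPKM in untreated and 4.19, 11.38 and 3.99 FPKM in ET-1 libraries. Its ligand Sema7a was at 17.34, 45.83 and 22.20 FPKM in untreated and 18.87, 68.89 and 48.39 FPKM in ET-1 libraries. Sema5a, at 1.85 to 5.77 FPKM, and Ephb1, at 0.30 to 3.35 FPKM, had the same order. In the same libraries 7 of 10 Sertoli cell markers were highest in both groups, among them Cldn11, a tight junction protein, at 105.07, 481.09 and 180.03 FPKM in untreated and 206.07, 573.30 and 244.40 FPKM in ET-1 libraries. So were 3 of 8 neural and Schwann cell markers, Tubb3 among them, 2 of 6 germ cell markers, 1 of 10 macrophage markers and 0 of the 7 smooth muscle, 12 endothelial, 7 Leydig cell and 5 pericyte markers. The part of any of these cells in the members' values was not tested.

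**Figure D5:**
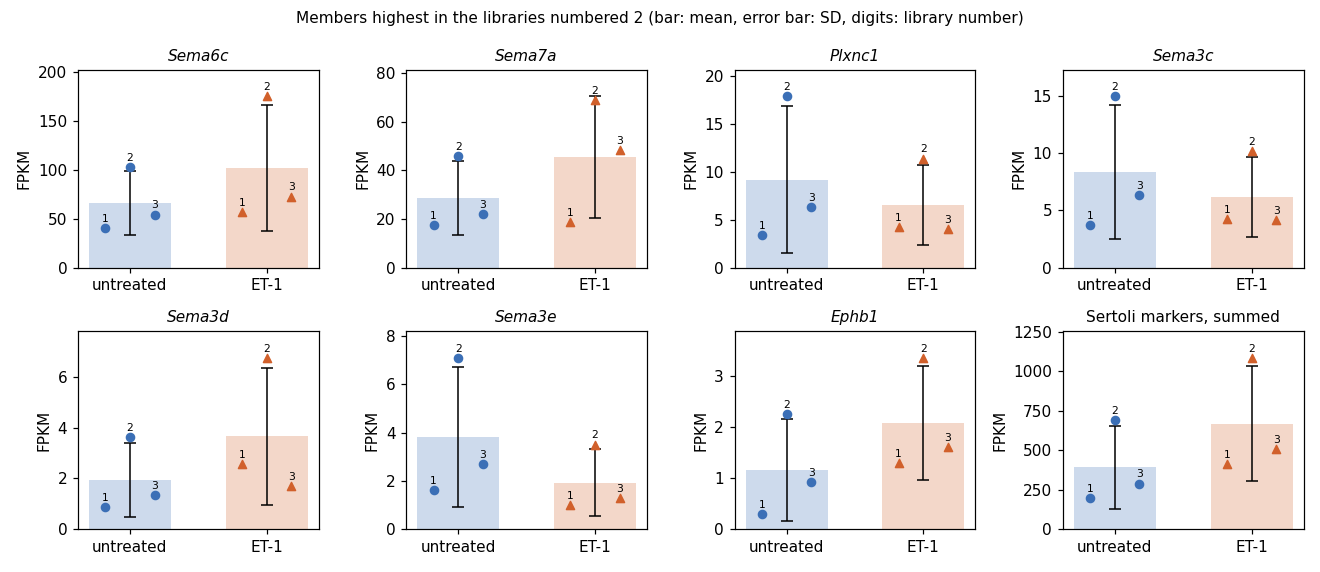
FPKM by library (points, numbered by library) of 7 members and of the sum of 10 Sertoli cell markers, with the group mean (bar) and SD (error bar), n = 3 each. Library 2 is the highest of its group in every panel.

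Sema6c rose and Sema3e fell only in the fit with the replicate block. Sema6c had a log2 change of 0.56 ± 0.48 (SE; limma adjusted p = 0.523) without the block and an adjusted p of 0.0338 with it. Within each number Sema6c was higher in ET-1 than in untreated cells. Sema3e had a log2 change of -0.64 ± 0.47 (SE; limma adjusted p = 0.445) without the block and an adjusted p of 0.0435 with it. Both sizes rested on single libraries in the fits without the block. The change of Sema6c was 0.08 without ET-1 library 2, 0.26 without untreated library 1, 0.88 without ET-1 library 1 and 0.93 without untreated library 2. That of Sema3e was -0.19 without untreated library 2, -0.42 without ET-1 library 1, -0.997 without untreated library 1 and -1.001 without ET-1 library 2. For Sema7a, whose log2 change was 0.59 ± 0.52 (SE; limma adjusted p = 0.527), the test with the block did not pass either.

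The 26 members under the filter are given by their values, with an alternative fit for 2 of them, Sema3a and Sema4d, chosen after their values were seen. Sema3a, the founding secreted semaphorin, was at 0.12, 0.17 and 0.11 FPKM in untreated and at 0.79, 1.01 and 0.82 FPKM in ET-1 libraries, about 15, 22 and 14 fragments against 99, 124 and 104. Sema4d, a semaphorin of immune cells that binds Plxnb1, was at 0.12, 0.21 and 0.14 FPKM in untreated and at 0.92, 0.49 and 0.64 FPKM in ET-1 libraries, about 10, 18 and 12 fragments against 77, 40 and 54. Both were higher in every ET-1 library, by 6.55-fold and 4.36-fold in mean FPKM. In the alternative fit without a filter, where 17838 genes were tested, Sema3a passed (log2 change 0.72 ± 0.06, SE, n = 3 each; limma adjusted p = 0.0222; blocked by number, 0.0771) and Sema4d did not (0.53 ± 0.10; 0.0661). That fit lost Efna4 (limma adjusted p = 0.0769) and Ephb2 (0.0747), which left 3 members past the threshold. The macrophage markers were higher after ET-1 as well, and their part in the values of Sema4d was not tested. Plxna3, Sema5b, Unc5c and Unc5d were higher, and Sema3g lower, without overlap, all at 1.12 FPKM or less. Unc5d, for example, rested on about 2, 5 and 3 fragments in untreated and 8, 13 and 10 in ET-1 libraries. The share without overlap was not computed for all genes under the filter. Plxna2, Plxna4, Plxnb3, Efna3, Robo3 and Sema3b lay between 0.22 and 1.56 FPKM with overlapping groups. Sema4f, Sema6a, Efnb3 and Unc5a stayed at 0.38 FPKM or less.

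Among the intracellular and membrane partners of these receptors, 1 gene passed. The list held 86 co-receptors, other cues and signalling proteins, of which 69 were tested, and 1 rose and none fell (1.45%, beside 3.46% of all genes tested). Without a block, 19 partners had an unadjusted limma p under 0.05 (27.5%, beside 24.1% of all genes tested). Dpysl3, a collapsin response mediator protein of the semaphorin pathway, rose from 17.17, 15.12 and 17.31 FPKM in untreated to 27.19, 24.88 and 25.69 FPKM in ET-1 libraries (log2 change 0.62 ± 0.10, SE, n = 3 each; limma adjusted p = 0.0308). Leaving out any 1 of untreated libraries 1, 2 and 3 or ET-1 libraries 1 and 2 left 0 partners past the threshold, and leaving out ET-1 library 3 gave 4. With the replicate block 7 partners rose and 2 fell, 13% of those tested beside 9.45% of all genes tested. Those that rose with the block were Dpysl3, Dpysl4, Mical1, Evl, Fes, Fyn and Cxcl12, and those that fell were Abl2 and Enah. Dpysl4, a relative of Dpysl3, was at 1.29, 2.25 and 1.23 FPKM in untreated and 3.80, 6.90 and 3.64 FPKM in ET-1 libraries. Mical1, an enzyme that oxidizes actin downstream of plexins, was at 16.78, 16.25 and 17.98 FPKM in untreated and 21.97, 25.70 and 28.29 FPKM in ET-1 libraries. Abl2, a tyrosine kinase that acts on actin, was at 7.04, 7.69 and 6.94 FPKM in untreated and 3.43, 4.27 and 4.95 FPKM in ET-1 libraries. Without the block Abl2, Mical1 and Dpysl4 had limma adjusted p of 0.0535, 0.0578 and 0.0604.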

How the data were processed

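RNA sequencing covered 3 untreated and 3 ET-1 libraries, and groups and replicate numbers came from the sample titles. The submitters' processing notes list HISAT2 2.0.4, Bowtie2 2.2.5, RSEM 1.2.12 and the mm10 build, without the role of each. The authors deposited FPKM per library, rounded to 2 decimals, in a table of 22135 genes, of which 19285 had values in all 6 libraries. The table also holds log2 fold changes, p-values and q-values of the authors, named for DEGseq in the file headers, which are not printed here. Gene coordinates are those of the deposited table.

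FPKM are not counts, and RSEM estimates need not be whole, so no count test was run. Depth was estimated from the steps of low FPKM values in genes 300 to 1200 bases long, where 84.6% to 89.3% lay within 0.15 of a whole fragment. Fragments per gene follow from that estimate. Genes with at least 1 FPKM in at least 3 libraries entered limma 3.58.1 (R 4.3.3) on log2(FPKM + 1), two-sided, with a mean-variance trend and Benjamini-Hochberg adjustment over 11664 genes. The pairing of numbers was checked by correlating, across genes, deviations from the group mean. This gave 0.228, 0.523 and 0.202 for numbers 1, 2 and 3, and the number was also used as a block. The check cannot settle the pairing, because deviations within a group sum to 0. A likeness of the libraries numbered 2 alone can then make the other values positive. Crossed pairs gave higher values, 0.249 for untreated library 1 with ET-1 library 3 and 0.271 for untreated library 3 with ET-1 library 1. The labels do not say what a number stands for.

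Members, lists and alternatives were chosen with earlier results of these data known. Values in every library are given for members past the threshold, members without overlap at an unadjusted p under 0.05, the 10 most abundant and the leader of each family. Of the signalling partners the 4 with the smallest p are given. Further members and partners were named after their values were seen. Alternatives changed the normalization, pseudocount, filter, libraries, block and spread model.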

Additional observations from a re-analysis of the deposited data

How the results depend on the processing

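The members past the threshold numbered 4 in the reported fit, 2 with quantile normalization (Unc5b and Robo2), 10 with the replicate block, 0 with untreated libraries 1 and 3 averaged, and 0 to 5 when 1 library was left out. Over all genes the count was 404, against 193 without a filter, 1102 with the replicate block, 9 with untreated libraries 1 and 3 averaged, 264 without both libraries numbered 2 (chosen after seeing the data), and 0 to 797 when 1 library was left out. Of the partners 1 passed, against 3 with equal medians, 3 with quantile normalization, 9 with the replicate block, 0 with untreated libraries 1 and 3 averaged and 0 to 4 when 1 library was left out. With pseudocounts of 0.1 and 5, 4 and 3 members passed, and with the filter at 0.5 FPKM 5 did, Sema3a among them, which reached that level only in its ET-1 libraries. Without a filter 3 members passed, as Sema3a was gained and Efna4 (adjusted p = 0.0769) and Ephb2 (0.0747) were lost. Log2 changes under the alternatives were compared for 23 members. These had an unadjusted limma p under 0.05, passed with the replicate block or had a mean of at least 10 FPKM. The log2 changes of Unc5b, Robo2, Efna4 and Ephb2 were above 0 in all alternatives run. Leaving out or averaging libraries could not turn these signs, because every ET-1 library was above every untreated library. Of these 23, the sign turned for 3 members close to 0. Plxnb2 was at 0.0385 with equal medians, 0.0625 with quantile normalization, 0.0328 without both libraries numbered 2, and -0.0623 to 0.0813 when 1 library was left out. Nrp2 was at 0.0262 with untreated libraries 1 and 3 averaged and -0.24 to 0.0573 when 1 library was left out, and Sema4b at 0.0179 without both libraries numbered 2 and -0.39 to 0.13 when 1 library was left out. The causes were not tested. Depth limits the members under the filter, where Efna3 at 0.22 FPKM, for example, rests on about 5 fragments.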
